A study of Triticum aestivum with 12 samples.

Results

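MS188 and MS1 are regulators that act late in the tapetum, the cell layer that lines the anther locule and feeds the developing pollen. The genes described here are the wheat gene models that the study's list of tapetum genes gives as orthologs of these Arabidopsis genes. They are 6 of the 266760 gene models counted, 3 for MS188 and 3 for MS1, 1 on each of the A, B and D subgenomes of hexaploid wheat. They are all gene models under these names in the list. The choice was made with earlier results of these data known. All 6 passed the filter on low counts, which left 70527 genes for testing.

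In Arabidopsis, tapetal development is governed by a chain of transcription factors in which DYT1 acts first, followed by TDF1, AMS, MS188 and MS1. MS188, also named MYB80 or MYB103, is an R2R3-type MYB factor that works with AMS to switch on genes for sporopollenin, the polymer of the outer pollen wall, and it is needed for callose around the tetrads to dissolve. MS1 is a protein with a PHD finger that is needed for the late pollen wall and coat, and its rice counterpart PTC1 is needed for programmed death of the tapetum.

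Anthers came from winter wheat, Triticum aestivum, of the heat-sensitive cultivar ‘Mv 17-09’ and the tolerant cultivar ‘Ellvis’. In each cultivar 3 libraries were made from plants kept for 24 h at 35 °C from the day before meiosis began, and 3 from controls that were not heated. Only 1 cultivar of each tolerance class was compared, so tolerance and cultivar cannot be told apart. What separates the biological replicates is not described, and p-values cover the variation among these libraries alone. Whole anthers were sequenced, so fewer tapetal cells and less RNA per tapetal cell cannot be told apart in any value below.

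Library totals ranged from 9336312 to 20846135 counts in 11 libraries. ‘Ellvis’ control replicate 1 stood apart with 1831675 counts, and fold changes and calls of heat in ‘Ellvis’ are given with and without it. As a check of the tissue, 32 of 34 genes of sporopollenin synthesis and export, which are markers of the tapetum, had counts in every library. Their summed level was 5268 to 6867 CPM (counts scaled to one library size with TMM factors) in heat-stressed ‘Mv 17-09’ and 16727 to 36198 CPM in the other libraries. Of 38 meiosis genes used as markers of meiocytes, 32 to 38 had counts in a library, and they summed to 146 to 235 CPM.

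The MS188 copies lie on the group 2 chromosomes in the IWGSC RefSeq v2.1 assembly. MS188-A is TraesCS2A03G0818800 (LOC123185603), at 571648717 to 571650348 on chromosome 2A. MS188-B is TraesCS2B03G0905300 (LOC123041520), at 506427533 to 506429185 on chromosome 2B. MS188-D is TraesCS2D03G0760400 (LOC123049496), at 426201723 to 426203287 on chromosome 2D. These are spans of whole genes, introns and untranslated ends included.

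The MS1 copies lie on the group 5 chromosomes. MS1-A is TraesCS5A03G0593100 (LOC123103926), at 449128662 to 449131204 on chromosome 5A. MS1-B is TraesCS5B03G0608200 (LOC123116259), at 411993241 to 411995882 on chromosome 5B. MS1-D is TraesCS5D03G0557000 (LOC123121697), at 351738044 to 351740544 on chromosome 5D. How reads shared by homoeologous copies were assigned is not given in the sources used here, so the sum over the 3 copies of a gene is the firmer value.

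All 6 genes were strongly downregulated by heat in ‘Mv 17-09’, and none was called in ‘Ellvis’ when all libraries were used. A call required an adjusted p under 0.05 (edgeR quasi-likelihood test, Benjamini-Hochberg over all genes tested) and at least a 2-fold change. Of all genes tested, 6.93% were called lower in ‘Mv 17-09’, and 1.64% lower and 1.98% higher in ‘Ellvis’. In heat-stressed ‘Mv 17-09’ the summed level of MS188 was 18.8% of the control mean and that of MS1 was 14.9%. In ‘Ellvis’ the direction of MS1 depended on control replicate 1, and without it MS1 rose 2.09-fold while MS188 was 1.41-fold lower and not called.

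**Figure D1:**
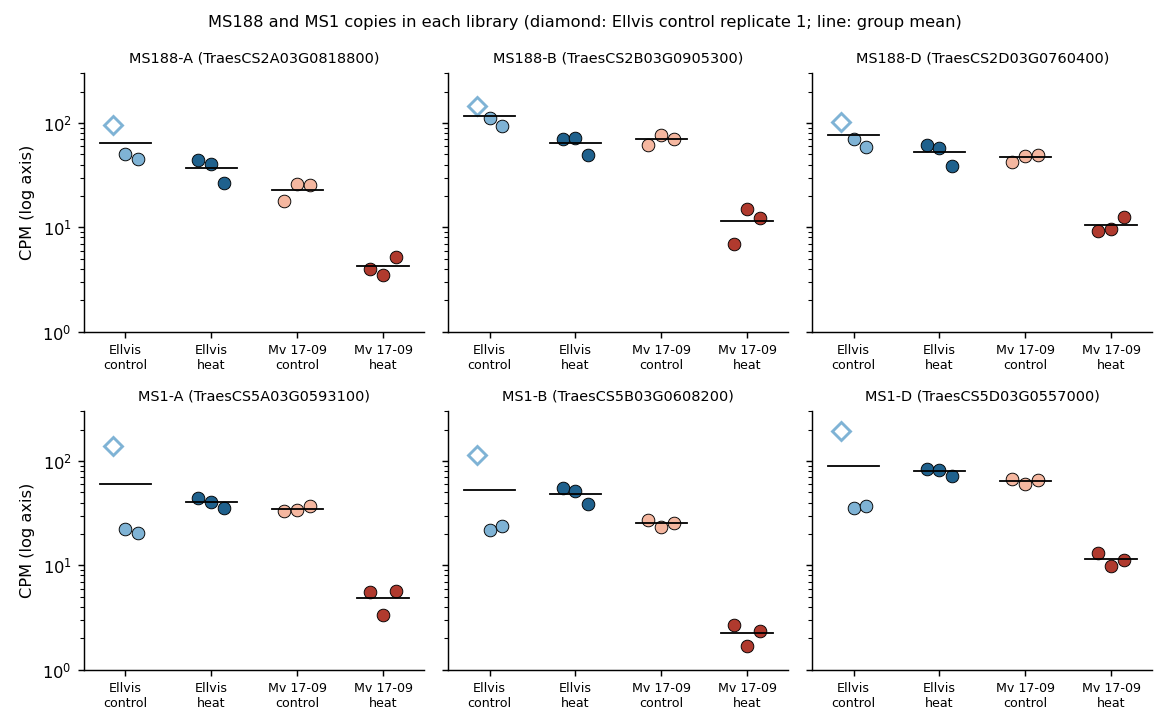
CPM of each copy (log axis) in the 12 libraries by group, with a line at the group mean and a diamond for ‘Ellvis’ control replicate 1. Every heat-stressed ‘Mv 17-09’ library lies below every other library in all 6 panels, and the diamond lies far above the other ‘Ellvis’ controls for MS1 (138 against 22.1 and 20.6 CPM for MS1-A).

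The levels of MS188, the MYB factor, are given first for ‘Mv 17-09’. MS188-A stood at 17.8, 25.8 and 25.3 CPM in controls and at 3.96, 3.46 and 5.24 CPM after heat. MS188-B stood at 62.0, 76.0 and 70.8 CPM in controls and at 6.88, 15.1 and 12.3 CPM after heat. MS188-D stood at 42.7, 48.2 and 49.4 CPM in controls and at 9.17, 9.65 and 12.6 CPM after heat. For each copy the highest heat-stressed library was below the lowest control, so the groups did not overlap. The share of all genes tested whose groups separate in this way is not given, here or below.

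MS188 thus fell in this cultivar for 3 of 3 copies, where 6.93% of all genes tested were called lower. The log2 fold change was −2.44 ± 0.31 (SE) for MS188-A (adjusted p = 3.35e-05), −2.61 ± 0.26 for MS188-B (adjusted p = 3.33e-06) and −2.16 ± 0.23 for MS188-D (adjusted p = 6.43e-06). The sum of the copies went from 139 ± 14.7 CPM (SD, n = 3) to 26.1 ± 5.39 CPM (SD, n = 3), a 5.33-fold fall in the edgeR fit (log2 fold change −2.41 ± 0.24, adjusted p = 3.52e-06). In raw counts the heat-stressed libraries still held 192, 269 and 282 reads of MS188, against 1827 to 2859 in controls, so the low values are well above the counting limit. The exact 95% Poisson interval of the smallest of these sums is 17.3 to 23.1 CPM, which covers counting error only.

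MS1, the PHD-finger gene that follows MS188 in the Arabidopsis chain, also fell in ‘Mv 17-09’. MS1-A stood at 33.3, 33.9 and 37.4 CPM in controls and at 5.52, 3.36 and 5.67 CPM after heat. MS1-B stood at 27.2, 23.4 and 25.6 CPM in controls and at 2.71, 1.68 and 2.35 CPM after heat. MS1-D stood at 66.7, 60.8 and 66.2 CPM in controls and at 13.2, 9.96 and 11.2 CPM after heat. Again no heat-stressed library reached the lowest control for any copy, and the 3 control values of a copy lay close together.

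The test called 3 of 3 MS1 copies lower in this cultivar, where 6.93% of all genes tested were called lower. The log2 fold change was −2.84 ± 0.57 (SE) for MS1-A (adjusted p = 0.00202), −3.49 ± 0.55 for MS1-B (adjusted p = 2.98e-04) and −2.49 ± 0.48 for MS1-D (adjusted p = 0.00156). The MS1-B change, 11.3-fold, was the largest of the 6. The MS1 sum went from 125 ± 5.88 CPM (SD, n = 3) to 18.6 ± 3.29 CPM (SD, n = 3), a 6.72-fold fall (log2 fold change −2.75 ± 0.50, adjusted p = 9.88e-04).

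The wide standard errors of MS1 in ‘Mv 17-09’ came with the spread of the ‘Ellvis’ controls, because the fit uses 1 estimate of the spread per gene for all groups. With ‘Ellvis’ control replicate 1 left out, the fold change of summed MS1 in ‘Mv 17-09’ was nearly the same (−2.76) while its SE was 0.11 (adjusted p = 1.96e-13). For summed MS188 the corresponding values were −2.42, 0.15 and 9.2e-11.

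‘Ellvis’ presented another picture for MS188. MS188-A stood at 95.5, 50.6 and 45.2 CPM in control replicates 1, 2 and 3 and at 44.02, 40.9 and 26.9 CPM after heat. MS188-B stood at 145, 112 and 93.9 CPM in controls and at 70.1, 72.5 and 48.9 CPM after heat. MS188-D stood at 103, 70.6 and 59.2 CPM in controls and at 61.8, 57.7 and 39.04 CPM after heat. Control replicate 1 was the highest library for every copy, and replicate 3 of the heat-stressed libraries was the lowest. The groups did not overlap for MS188-A and MS188-B, whereas for MS188-D 1 heat-stressed library was above the lowest control. This describes the libraries only, without a share over all genes tested.

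None of the 3 MS188 copies was called in ‘Ellvis’ by edgeR, where 1.64% of all genes tested were called lower and 1.98% higher. MS188-B had an adjusted p of 0.0389, but its log2 fold change of −0.86 ± 0.24 (SE) was below 2-fold. For MS188-A the value was −0.71 ± 0.26 (adjusted p = 0.121) and for MS188-D −0.52 ± 0.21 (adjusted p = 0.164). The MS188 sum was 258 ± 75.5 CPM (SD, n = 3) in controls and 154 ± 33.98 CPM (SD, n = 3) after heat (log2 fold change −0.74 ± 0.23, adjusted p = 0.0617). At an unadjusted p under 0.05, 3 of the 6 genes passed in ‘Ellvis’, all of them MS188 copies. DESeq2 also called 0 of 6, where it called 1327 of all 70527 genes tested lower and 1138 higher. Limma with sample weights called 2 of 6, both MS1 copies and both higher, but the share of all genes that it called is not given here.

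Leaving out control replicate 1 did not turn the direction of MS188 in ‘Ellvis’. The summed log2 fold change was then −0.49 ± 0.15 (SE) with an adjusted p of 0.0247, that is 1.41-fold lower and short of the 2-fold limit. MS188-B gave −0.69 (adjusted p = 0.00531), MS188-A −0.37 (adjusted p = 0.123) and MS188-D −0.30 (adjusted p = 0.152). The values were negative with and without this library, and those of MS188-B passed the p threshold but not the fold threshold in both cases.

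For MS1 the ‘Ellvis’ controls disagreed with each other. MS1-A stood at 138, 22.1 and 20.6 CPM in control replicates 1, 2 and 3 and at 44.3, 40.9 and 35.7 CPM after heat. MS1-B stood at 114, 21.8 and 23.6 CPM in controls and at 55.4, 51.4 and 39.04 CPM after heat. MS1-D stood at 193, 35.6 and 37.1 CPM in controls and at 84.8, 81.3 and 72.5 CPM after heat. For every copy control replicate 1 was above all heat-stressed libraries and the other controls were below all of them.

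With all libraries the MS1 sum was 202 ± 211 CPM (SD, n = 3) in ‘Ellvis’ controls and 168 ± 19.1 CPM (SD, n = 3) after heat, so the control SD exceeded its mean. The log2 fold change was −0.22 ± 0.46 (SE) with an adjusted p of 0.850, and single copies gave −0.37 (MS1-A), 0.08 (MS1-B) and −0.04 (MS1-D). The edgeR fit thus detected no effect of heat on MS1 in ‘Ellvis’ with all 3 controls, whereas limma with sample weights called 2 MS1 copies higher.

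Without control replicate 1 the remaining controls summed to 79.5 and 81.4 CPM, against 184, 174 and 147 CPM after heat, and MS1 was called higher. The summed log2 fold change was 1.06 ± 0.11 (SE; adjusted p = 9.76e-07). MS1-B rose by 1.09 (adjusted p = 5.25e-06) and MS1-D by 1.12 (adjusted p = 1.54e-07) on the log2 scale. MS1-A, at 0.91 (adjusted p = 2.68e-05), missed the 2-fold limit. In this fit 2 of 6 genes were called higher, where 4.29% of all genes tested were called higher and 2.17% lower. The rise rests on 2 control libraries.

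**Figure D2:**
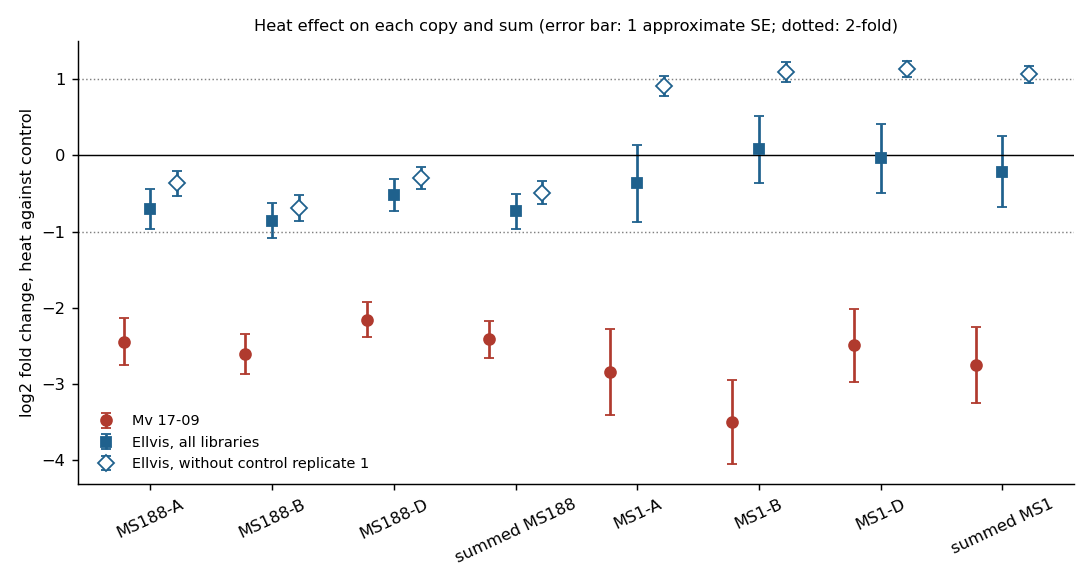
Log2 fold change of heat against control for each copy and for the sums, in ‘Mv 17-09’ (circles), in ‘Ellvis’ with all libraries (squares) and in ‘Ellvis’ without control replicate 1 (diamonds), with 1 approximate SE. In ‘Mv 17-09’ all values lie between −3.49 and −2.16, and the ‘Ellvis’ value of summed MS1 moves from −0.22 to 1.06 when the library is left out.

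The distance of control replicate 1 from the other ‘Ellvis’ controls was much larger for MS1 than for MS188. Its summed MS1 level, 445 CPM, was 5.54 times the mean of the other controls, a ratio that 2.51% of all genes tested reached (after adding 0.5 CPM to each level). For single MS1 copies the ratio was 5.03 to 6.45. Its summed MS188 level, 343 CPM, was 1.59 times that mean, which 26.2% of genes reached. It held 788 counts of MS1 and 607 of MS188, and the exact 95% Poisson interval of its MS1 sum, 415 to 477 CPM, does not approach the other controls.

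Other anther genes also stood apart in that library. On the log2 scale the median ratio of control replicate 1 to the other ‘Ellvis’ controls was 0.40 over 9 upstream regulators, 0.50 over 32 tested sporopollenin genes and 1.55 over 12 genes of tetrad release and the early pollen wall. It was 0.75 over 35 tested pollen coat genes, −0.33 over 9 other bHLH factors of the tapetum, −0.55 over 34 meiosis genes and −0.08 over all genes tested. Of all genes tested, 19.1% were at least 2-fold higher in that library. The part of depth, stage or tissue content in these differences was not tested.

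The question of whether the cultivars responded differently was addressed by testing the difference between the heat effects itself. For MS188 the effect in ‘Mv 17-09’ was lower by −1.74 ± 0.40 (SE) for MS188-A (adjusted p = 0.0156), −1.75 ± 0.34 for MS188-B (adjusted p = 0.00569) and −1.64 ± 0.31 for MS188-D (adjusted p = 0.00424) on the log2 scale. The difference was −3.57 ± 0.71 for MS1-B (adjusted p = 0.00627) and −2.45 ± 0.65 for MS1-D (adjusted p = 0.0346). MS1-A, at −2.48 ± 0.75, was not called (adjusted p = 0.0660). Thus 5 of 6 genes were called lower in this test, where 3.75% of all genes tested were.

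The difference of the sums was −1.68 ± 0.32 (SE) for MS188 (adjusted p = 0.00499) and −2.53 ± 0.67 for MS1 (adjusted p = 0.0343). The MS188 call held when any 1 library was left out, with values from −1.93 to −1.55. The MS1 call was lost on leaving out heat-stressed ‘Ellvis’ replicate 1 or 2 or any 1 of the ‘Mv 17-09’ libraries (adjusted p up to 0.0887), although the difference stayed between −2.70 and −2.44 in these fits. The MS1-D call was lost in the same fits and without ‘Ellvis’ control replicate 2 or 3 (adjusted p 0.0508 to 0.0882), and the MS188-A call without heat-stressed ‘Mv 17-09’ replicate 2 (adjusted p = 0.0538). Without ‘Ellvis’ control replicate 1 all 6 genes were called lower (7.13% of all genes tested), and the differences were −1.93 ± 0.22 for summed MS188 (adjusted p = 1.75e-06) and −3.82 ± 0.16 for summed MS1 (adjusted p = 4.4e-12).

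Between unstressed anthers of the cultivars MS188-A was called and summed MS188 was not. The summed difference of ‘Mv 17-09’ from ‘Ellvis’ was −0.88 on the log2 scale with all libraries and −0.63 (adjusted p = 0.00279) without ‘Ellvis’ control replicate 1, under 2-fold in both cases. The ‘Mv 17-09’ control mean of MS188-A, 23.0 ± 4.45 CPM (SD, n = 3), was below that of ‘Ellvis’, 63.7 ± 27.6 CPM (SD, n = 3), with a log2 difference of −1.40 ± 0.26 (SE; adjusted p = 0.00109). This was the 1 gene of 6 that was called between controls, where 7.02% of all genes tested were called lower in ‘Mv 17-09’. MS188-B (−0.73, adjusted p = 0.0392) and MS188-D (−0.69, adjusted p = 0.0297) were lower by less than 2-fold. Leaving out ‘Ellvis’ control replicate 2 added MS1-B to the calls (−1.26, adjusted p = 0.0477). Without ‘Ellvis’ control replicate 1 MS188-A was still called (−1.06, adjusted p = 4.18e-05), where 7.23% of all genes tested were called lower.

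For MS1 the direction between controls turned with that library. With all libraries the summed MS1 difference of ‘Mv 17-09’ from ‘Ellvis’ was −0.65 ± 0.46 (SE; adjusted p = 0.379). Without it the difference was 0.63 ± 0.11 (adjusted p = 1.51e-04), higher in ‘Mv 17-09’ but under 2-fold. The ‘Mv 17-09’ controls, at 127, 118.2 and 129 CPM, were above ‘Ellvis’ control replicates 2 and 3 and far below replicate 1.

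After heat the cultivars differed in both regulators. All 6 genes were called lower in heat-stressed ‘Mv 17-09’ than in heat-stressed ‘Ellvis’, where 13.2% of all genes tested were called lower. Differences ran from −2.33 ± 0.23 (SE) for MS188-D (adjusted p = 1.34e-06) to −4.43 ± 0.55 for MS1-B (adjusted p = 1.53e-05) on the log2 scale. This comparison does not involve the ‘Ellvis’ controls except through the shared estimate of the spread.

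By stricter criteria, which asked for an adjusted p under 1e-06 from DESeq2 as well as from the likelihood ratio test of edgeR besides a 2-fold change, the falls of MS188 and of MS1-B in ‘Mv 17-09’ were still called, 4 of 6 genes where 2.23% of all genes tested were called lower. After heat the same 4 genes were called lower in ‘Mv 17-09’ than in ‘Ellvis’ (3.67% of all genes tested). None of the 6 was called by these criteria for heat in ‘Ellvis’ (0.406% of all genes tested were called lower), for the difference in heat effect (0.691%) or between controls (2.24%). Without ‘Ellvis’ control replicate 1 the stricter criteria called 6 of 6 lower in ‘Mv 17-09’ (3.23% of all genes tested) and 6 of 6 lower after heat (5.13%). They then called 5 of 6 for the difference in heat effect (1.61% of all genes tested were called lower), all but MS188-B, and MS188-A between controls (2.55%). For heat in ‘Ellvis’ they called MS1-B and MS1-D higher (0.601%).

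In order of level, heat-stressed ‘Mv 17-09’ was thus lowest for every gene. For summed MS188 it was followed by ‘Mv 17-09’ controls (139 CPM) and heat-stressed ‘Ellvis’ (154 CPM), whose libraries overlapped, and by ‘Ellvis’ controls (258 CPM). For summed MS1 the order was ‘Mv 17-09’ controls (125 CPM), heat-stressed ‘Ellvis’ (168 CPM) and ‘Ellvis’ controls (202 CPM). Without control replicate 1 the mean of ‘Ellvis’ controls was 80.4 CPM, which placed them second lowest.

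The balance between the genes was described by the ratio of summed MS1 counts to summed MS188 counts in a library. It was 1.30, 0.341 and 0.410 in ‘Ellvis’ controls and 1.05, 1.01 and 1.28 after heat. In ‘Mv 17-09’ it was 1.04, 0.788 and 0.889 in controls and 1.07, 0.532 and 0.638 after heat. ‘Ellvis’ control replicates 2 and 3 were thus the libraries with the least MS1 relative to MS188, and replicate 1 had the highest ratio of all.

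Heat changed the log2 ratio by −0.33 in ‘Mv 17-09’ (exact two-sided permutation test, p = 0.4, n = 3 and 3) and by 0.97 in ‘Ellvis’ (exact p = 0.4, n = 3 and 3). Without control replicate 1 the change in ‘Ellvis’ was 1.57 and the groups did not overlap, but 3 against 2 libraries cannot give a p below 0.2. MS1 thus fell with MS188 in ‘Mv 17-09’, whereas in ‘Ellvis’ without that library MS1 was called higher and MS188 was not called.

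**Figure D3:**
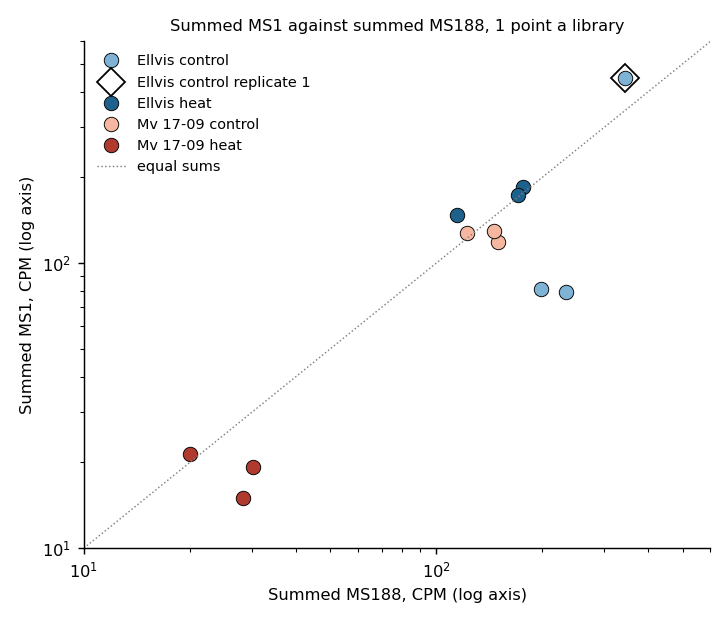
Summed MS1 against summed MS188 in CPM (both axes log), 1 point for each of the 12 libraries, with a dotted line where the sums are equal. Heat-stressed ‘Mv 17-09’ lies at the lower left (20.01 to 30.2 CPM of MS188), ‘Ellvis’ control replicates 2 and 3 lie below the line, and ‘Ellvis’ control replicate 1 lies at the upper right.

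The homoeologous copies did not contribute equally. Levels of different copies were compared as CPM per kb of gene span. MS188-B was the highest MS188 copy in 10 of 12 libraries and MS188-D in 2 heat-stressed ‘Mv 17-09’ libraries, while MS188-A was the lowest in all 12. In ‘Mv 17-09’ controls the means were 14.1 CPM per kb for MS188-A, 42.1 for MS188-B and 29.9 for MS188-D. In ‘Ellvis’ controls they were 39.1, 70.7 and 49.6 CPM per kb.

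Among MS1 copies MS1-D was the highest in all 12 libraries. MS1-B was the lowest in 8 libraries, including all 6 of ‘Mv 17-09’, and MS1-A was the lowest in 4, namely the 3 heat-stressed ‘Ellvis’ libraries and ‘Ellvis’ control replicate 3. After heat in ‘Mv 17-09’ the means were 1.91 CPM per kb for MS1-A, 0.851 for MS1-B and 4.59 for MS1-D. In heat-stressed ‘Ellvis’ they were 15.8, 18.4 and 31.8 CPM per kb.

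The share of the summed counts held by each MS1 copy was compared between control and heat-stressed ‘Mv 17-09’. The MS1-B share was 21.4%, 19.8% and 19.8% in controls and 12.6%, 11.2% and 12.2% after heat, with no overlap. It rested on 26, 16 and 22 counts after heat, and the exact binomial 95% intervals (Clopper-Pearson) of these shares together span 6.53% to 17.9%. The mean share of MS1-D was 51.7% ± 0.637 in controls and 62.1% ± 4.07 after heat (SD, n = 3), with no overlap, and that of MS1-A was 27.9% ± 1.55 and 25.9% ± 3.54, with overlap. In ‘Ellvis’ the MS1-B share was 27.4% ± 1.71 in controls and 28.7% ± 1.92 after heat (SD, n = 3), with overlap. There the MS1-D share was 44.6% ± 1.11 in controls and 47.3% ± 1.71 after heat, with no overlap. The MS1-A share was 28.0% ± 2.81 and 23.9% ± 0.336 in ‘Ellvis’, also with no overlap.

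For MS188 the D copy held a larger mean share after heat in both cultivars. In ‘Ellvis’ the MS188-D share was 30.0% ± 0.223 in controls and 34.3% ± 0.742 after heat, with no overlap, and in ‘Mv 17-09’ it was 33.7% ± 1.39 and 40.6% ± 5.91 (SD, n = 3), with overlap. The MS188-A share was 16.4% ± 1.58 in ‘Mv 17-09’ controls and 24.1% ± 3.28 in ‘Ellvis’ controls. Of 14 shares and ratios tested for a heat effect, 5 had groups that did not overlap, each at the smallest p that 3 against 3 libraries allow (exact two-sided permutation test, p = 0.1; adjusted p = 0.28), so no share passed the threshold.

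**Figure D4:**
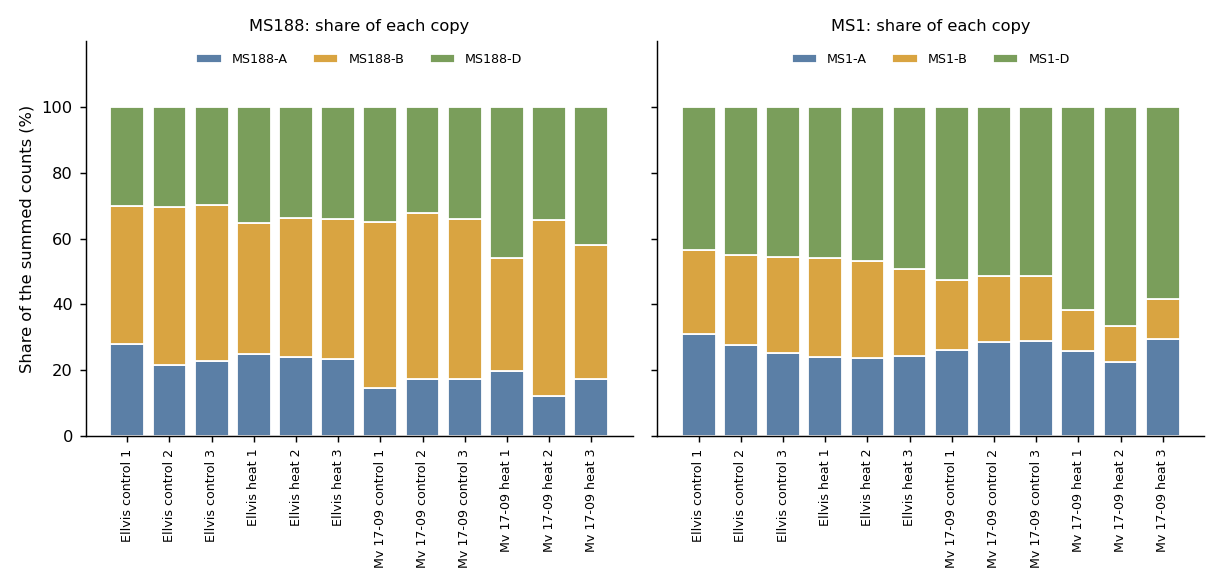
Share of each homoeologous copy in the summed counts of MS188 (left) and MS1 (right), in percent, for each library. The middle band of the right panel, MS1-B, spans 19.8% to 21.4% in ‘Mv 17-09’ controls and 11.2% to 12.6% after heat.

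The regulators that act before MS188 in the Arabidopsis chain were lower in ‘Mv 17-09’ as well. In that cultivar 9 of 9 upstream genes were called lower after heat, where 6.93% of all genes tested were. Their median log2 fold change was −2.07, where the median of all genes tested was 0. In ‘Ellvis’ 0 of 9 were called by edgeR (1.64% of all genes tested were called lower and 1.98% higher), with a median of −0.23. Without control replicate 1 it was also 0 of 9 (2.17% lower and 4.29% higher), with a median of −0.0038. The test of the difference called 9 of 9 lower in ‘Mv 17-09’ in both fits, where 3.75% and 7.13% of all genes tested were. The medians of the 9 genes were −2.17 and −2.44.

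TDF1, a MYB factor like MS188, showed the largest fold changes of this list. Its 3 copies changed by −2.77 (TraesCS4A03G0232500), −3.31 (TraesCS4B03G0536300) and −2.77 (TraesCS4D03G0476500) on the log2 scale in ‘Mv 17-09’, and by −0.05, −0.29 and −0.27 in ‘Ellvis’ (−0.10, −0.30 and −0.33 without control replicate 1). TDF1 differed little between ‘Ellvis’ controls. Its TraesCS4A03G0232500 copy stood at 40.3 ± 3.27 CPM (SD, n = 3), an SD far smaller relative to the mean than that of MS1.

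The bHLH factors listed as orthologs of both DYT1 and AMS changed by less. In ‘Mv 17-09’ the 6 genes gave log2 fold changes of −1.83 (TraesCS6A03G0158600), −2.07 (TraesCS6A03G0158700), −1.95 (TraesCS6B03G0225300), −1.72 (TraesCS6B03G0225400), −1.55 (TraesCS6D03G0144100) and −2.37 (TraesCS6D03G0144300). In ‘Ellvis’ TraesCS6A03G0158600 gave 0.40 (adjusted p = 0.171) and the others −0.39 to −0.07, none of them called. Without control replicate 1 the former gave 0.51 (adjusted p = 0.00513) and the others −0.13 to 0.37, again all under 2-fold. The MS188 sum (−2.41) and the MS1 sum (−2.75) lie within the range of the upstream genes in ‘Mv 17-09’.

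Downstream of MS188 lie the enzymes and transporters of sporopollenin, which in Arabidopsis it helps to activate. Of 32 tested genes, 29 were called lower in ‘Mv 17-09’ and 0 higher, where 6.93% and 4.67% of all genes tested were. The median of the 32 genes was −2.06. In ‘Ellvis’ 0 of 32 were called by edgeR (1.64% of all genes tested were called lower and 1.98% higher), with a median of −0.25. Without control replicate 1 it was also 0 of 32 (2.17% lower and 4.29% higher), with a median of 0.016. The test of the difference called 21 lower, where 3.75% of all genes tested were. Without ‘Ellvis’ control replicate 1 it called 29 lower, where 7.13% of all genes tested were. With all libraries but no filter on low counts, 3 of 32 were called lower in ‘Ellvis’, where 1737 of 185812 genes tested were. The difference was then called lower for 29, where 4110 of 185812 genes tested were.

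The sporopollenin gene with the highest mean was TraesCS2B03G0757300, listed as ACOS5, the acyl-CoA synthetase that prepares fatty acids for sporopollenin. It went from 2268 ± 216 to 428 ± 34.9 CPM (SD, n = 3) in ‘Mv 17-09’ (log2 fold change −2.41, adjusted p = 3.58e-05) and gave −0.71 in ‘Ellvis’ (adjusted p = 0.166), or −0.10 without control replicate 1. The steepest called fall was that of TraesCS5A03G0006300, listed as the polyketide synthase PKSB, at −3.92 (adjusted p = 2.49e-04). It gave −1.38 in ‘Ellvis’ with all libraries and 0.16 without control replicate 1.

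MS188 and MS1 were also set against this tapetal output. Per 1000 CPM of the sporopollenin list, summed MS188 was 6.09 ± 0.455 CPM in ‘Mv 17-09’ controls and 4.40 ± 1.30 CPM after heat (SD, n = 3), with no overlap. Summed MS1 was 5.48 ± 0.383 and 3.04 ± 0.168 CPM (SD, n = 3) on the same scale, also with no overlap. Both ratios were lower in every heat-stressed library than in every control, without a test.

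In ‘Ellvis’ the same ratio was 11.2 ± 2.03 CPM in controls and 8.29 ± 1.23 CPM after heat for MS188, and 7.08 ± 4.52 and 9.12 ± 0.320 CPM for MS1 (SD, n = 3). Control replicate 1 had 12.3 CPM of MS1 per 1000 CPM of the list, against 4.58 and 4.37 CPM in the other controls. MS1 was therefore high in that library relative to the sporopollenin genes too, whereas MS188 was not, at 9.47 CPM.

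Other tapetal lists moved less uniformly. Of 9 other tested bHLH factors of the tapetum, 3 were called lower in ‘Mv 17-09’ (median −0.73), where 6.93% of all genes tested were. In ‘Ellvis’ 2 were called lower and 2 higher (1.64% and 1.98% of all genes tested), and 2 lower and 1 higher without control replicate 1 (2.17% and 4.29%). TraesCS7A03G0276400, listed as the rice tapetal factor TIP2, had the largest change in both cultivars, −2.22 in ‘Mv 17-09’ (adjusted p = 7.69e-06) and −1.43 in ‘Ellvis’ (adjusted p = 6.58e-04; −1.29 without control replicate 1). TraesCS2B03G1175100, listed as EAT1, a rice factor that promotes tapetal cell death, had the highest mean. It gave −0.60 in ‘Mv 17-09’, which is under 2-fold, and was called higher in ‘Ellvis’ (1.06, adjusted p = 6.67e-04). Without control replicate 1 that value was 0.99 (adjusted p = 3.59e-06), just under 2-fold, and the call was lost.

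Of 12 tested genes of tetrad release and the early pollen wall (A6, QRT3 and UPEX1), 7 were called lower and 3 higher in ‘Mv 17-09’ (median −1.06), where 6.93% and 4.67% of all genes tested were. In ‘Ellvis’ 2 were called higher (median −0.29), where 1.98% of all genes tested were, and 3 without control replicate 1 (median 0.68), where 4.29% were. The sign of this median among the tetrad genes thus turned with that library. TraesCS2B03G1128800, listed as QRT3, a pectin-degrading enzyme that frees microspores, had the highest mean and fell by 1.88 on the log2 scale in ‘Mv 17-09’ (adjusted p = 0.00219). In ‘Ellvis’ it gave −0.21 with all libraries and 0.64 (adjusted p = 0.00192) without control replicate 1, not called in either fit. The largest changes were rises of A6 genes, which encode callose-degrading glucanases. TraesCS7B03G0418300 rose by 3.10 in ‘Mv 17-09’ (adjusted p = 1.2e-04) and TraesCS7D03G0583800 by 3.25 in ‘Ellvis’ (adjusted p = 0.00871; 3.95 without control replicate 1). The latter had only 10 counts over the ‘Ellvis’ controls (0.888 ± 1.19 CPM, SD, n = 3), so the size of its rise is uncertain.

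In the pollen coat list more genes were called higher than lower. Of 35 tested, 14 were called higher and 1 lower in ‘Mv 17-09’ (median 0.71), where 4.67% and 6.93% of all genes tested were. In ‘Ellvis’ 9 were called higher and 0 lower (median 0.55), where 1.98% and 1.64% of all genes tested were. Without control replicate 1 it was 12 higher and 1 lower of 37 tested (median 0.64), where 4.29% and 2.17% of all genes tested were. The list holds 111 genes, most of which did not pass the filter on low counts, and its medians depended on that filter. With all libraries and no filter 102 were tested, and the median was 0 in ‘Mv 17-09’ and −0.53 in ‘Ellvis’. In ‘Mv 17-09’ 14 were then called higher and 2 lower (3414 and 6041 of 185812 genes tested). In ‘Ellvis’ 10 were called higher and 1 lower (1893 and 1737). The gene with the highest mean, TraesCS1A03G0405200, listed as the wax alkane enzyme CER1, gave 0.46 in ‘Mv 17-09’ and −0.08 in ‘Ellvis’ (−0.13 without control replicate 1) and was not called. The largest called changes by fitted value were rises of genes whose controls held almost no counts, so no fold is given for them. TraesCS1D03G0933000, a ketoacyl-CoA synthase listed as KCS7 and KCS21, had 2 counts over the ‘Mv 17-09’ controls, with means of 0.0434 CPM in controls and 2.25 CPM after heat. TraesCS7A03G0007700, listed as the triterpene synthase OsOSC12, had 1 count over the ‘Ellvis’ controls, in replicate 1, with means of 0.188 CPM in controls and 1.69 CPM after heat.

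**Figure D5:**
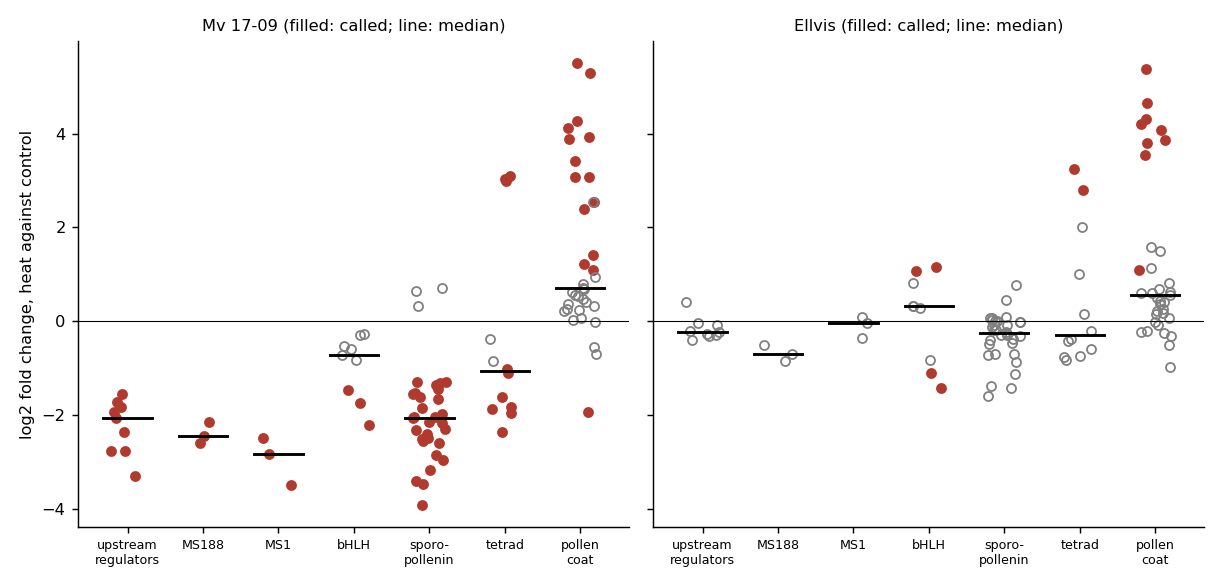
Log2 fold change of heat against control for each tested gene of 7 lists in ‘Mv 17-09’ (left) and ‘Ellvis’ (right), filled where called, with a line at the list median. The medians of upstream regulators, MS188, MS1 and sporopollenin genes lie between −2.84 and −2.06 in ‘Mv 17-09’ and between −0.71 (MS188) and −0.042 (MS1) in ‘Ellvis’. The medians of the 35 pollen coat genes that passed the filter on low counts, of 111 listed, are 0.71 and 0.55.

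Genes outside the lists whose pattern was most like that of the summed regulators were found by Pearson correlation of log2 CPM over the libraries, as a description across libraries that share groups and depth. For MS188 they were TraesCS4A03G0478300 (r = 0.992), TraesCS4D03G0259600 (r = 0.991) and TraesCS4D03G0284800 (r = 0.991) over 12 libraries. Over 11 libraries, without ‘Ellvis’ control replicate 1, none of these stayed among the nearest 3, which were TraesCS7B03G0578600, TraesCS7B03G0779400 and TraesCS2D03G0152400LC. Many genes were nearly as close, since the gene at rank 100 still had r = 0.973 over 12 and 0.981 over 11 libraries, so the order of the nearest genes carries little weight.

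For MS1 the nearest genes were TraesCS4D03G0235800, TraesCS2D03G0722900 and TraesCS2D03G0775900 (r = 0.994 to 0.995 over 12 libraries), and they were also the nearest 3 over 11 libraries (r = 0.997 to 0.998). TraesCS2D03G0775900 went from 130 ± 11.6 to 18.2 ± 2.71 CPM (SD, n = 3) in ‘Mv 17-09’. Its ‘Ellvis’ controls ranged from 83.4 to 750 CPM and its heat-stressed ‘Ellvis’ libraries from 147 to 211 CPM, the same arrangement of libraries as for MS1. Summed MS188 and summed MS1 were less alike, with r = 0.904 over 12 and 0.888 over 11 libraries. The gene models are named here by their IDs, since the tables used here do not pair them with names.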

How the data were processed

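Total RNA of whole anthers was depleted of rRNA and sequenced as directional paired-end libraries. The deposited values are raw counts per gene model, made by the authors with CLC Genomics Workbench on IWGSC RefSeq v2.1 after FastQC 0.11.8. For the strand setting and for multi-mapping reads, the choice is not given in the sources used here.

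Counts of all genes were fitted with edgeR 4.0.16 (R 4.3.3) in 4 groups, with TMM factors and filterByExpr (minimum count 10, minimum total 15). SE is approximate, the size of the log2 fold change divided by the root of F. Sums replaced the 3 copies in the same table. DESeq2 1.42.0, limma 3.58.1 with sample weights, other scalings, no filter, stricter criteria (1e-06), a replicate block and leaving out each library were alternatives. The fit was tested on simulated data. Shares and ratios used exact permutation tests.

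Members and lists were chosen with earlier results of these data known. Named genes are the 6 members, 9 upstream regulators and, in each other list, the gene with the highest mean and the called gene with the largest change per cultivar, with the 3 genes most like each sum. Coordinates come from NCBI RefSeq genes of the same assembly. No sequence is shown, promoters were not analysed here, and a marker list of green tissue was not used here.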

Additional observations from a re-analysis of the deposited data

Results flagged for a closer look

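The heat effect differed between the cultivars by the edgeR test of the difference for 5 of the 6 genes and for both sums. The effect in ‘Mv 17-09’ minus that in ‘Ellvis’ was −1.74 for MS188-A, −1.75 for MS188-B and −1.64 for MS188-D on the log2 scale. It was −3.57 for MS1-B and −2.45 for MS1-D. For the sums it was −1.68 for MS188 and −2.53 for MS1. All of these are larger in size without ‘Ellvis’ control replicate 1, at −3.82 for summed MS1, and groups of 3 libraries are too small for a check of single outlying values.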

How the results depend on the processing

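The fall of all 6 genes and both sums in ‘Mv 17-09’ and their lower level after heat kept direction and call under the other scalings, no filter, DESeq2, the likelihood ratio test, sample weights and each library left out. Only the stricter criteria (adjusted p under 1e-06 in 2 tests) lost MS1-A, MS1-D and summed MS1, the latter at −2.75 and −3.18. Under those criteria the difference in heat effect was called for 0 genes (summed MS188 −1.68, summed MS1 −2.49) and that between controls for 0. DESeq2 lost the difference in heat effect for MS1-D (−2.31, adjusted p = 0.0750) and summed MS1 (−2.46, adjusted p = 0.0800), with 4 of 6 genes called. Library totals alone moved the median of all genes by 0.10 in ‘Mv 17-09’ and 0.11 in ‘Ellvis’.

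The heat effect on MS1 in ‘Ellvis’ turned sign in several settings, and the cause was not tested beyond the library left out. Sample weights gave 0.84 for MS1-A, 1.05 for MS1-D and 0.95 for the sum. The 2 genes called were MS1-B and MS1-D, and the share of all genes called with sample weights is not given here. For MS1-B, DESeq2 gave −0.13, the likelihood ratio test and stricter criteria −0.094 and a fit of each cultivar alone −0.056. MS1-D gave 0.027 with library totals alone and 0.21 without a filter, where the sum gave 0.073. The stricter criteria without ‘Ellvis’ control replicate 1, chosen after seeing the data, gave 0.91 for MS1-A, 1.12 for MS1-D and 1.06 for the sum. In that setting the 2 genes called were MS1-B and MS1-D, where 0.601% of all genes tested were called higher. Between controls, MS1-A, MS1-B, MS1-D and their sum turned to 0.63, 0.088, 0.73 and 0.51 with sample weights and to 0.70, 0.16, 0.83 and 0.63 in the latter setting.

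With each library left out in turn, the heat effect in ‘Ellvis’ ranged from −0.80 to 0.91 for MS1-A, −0.33 to 1.09 for MS1-B, −0.42 to 1.12 for MS1-D and −0.58 to 1.06 for the sum, with 0 to 2 genes called. Between controls the ranges were −1.0044 to 0.70, −1.26 to 0.16, −0.72 to 0.83 and −1.0045 to 0.63, with 1 to 2 called. The difference in heat effect ranged from −3.82 to −2.18 for summed MS1, with 3 (without heat-stressed ‘Mv 17-09’ replicate 2) to 6 genes called. It called 2 to 6 pollen coat and 1 to 5 tetrad genes, and the heat effect in ‘Ellvis’ called 5 to 13 and 0 to 3 of these. The shares of all genes called in these single fits are not given here.

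Samples with the same replicate number deviated together only weakly (r = 0.08 to 0.18 in ‘Ellvis’, 0.00088 to 0.032 in ‘Mv 17-09’), so the numbers were not taken as pairs, and 5 of 6 libraries in ‘Ellvis’ and 3 of 6 in ‘Mv 17-09’ correlated best with their own number. With a replicate block MS1-A was called for the difference (−2.80, adjusted p = 0.0303), and the ‘Ellvis’ effect turned to 0.20 for MS1-D and 0.075 for summed MS1. No other call of the 6 genes or the sums changed with the block. Among the lists, the difference was then called for 25 sporopollenin, 2 tetrad and 2 coat genes (21, 1 and 3 without it), and the ‘Ellvis’ effect for 8 coat genes in place of 9. The shares of all genes called with the block are not given here.

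Depth limits the low values after heat in ‘Mv 17-09’, where MS1-B rests on 16 to 26 counts a library.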
